A study of Mus musculus with 192 samples.

Results

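The cells described here were the hematopoietic stem and progenitor cells with little CD135 on their surface, split by how much Sca-1 they carried. They came from 192 single LSK cells of C57BL/6 mouse bone marrow, which were index-sorted and sequenced as 2 library pools of 96 cells. LSK cells lack the markers of mature lineages and carry Sca-1 and the receptor cKit, and the compartment holds stem cells and early multipotent progenitors. In each pool the 32 cells with the lowest CD135 signal were taken and split into the 16 with the highest and the 16 with the lowest Sca-1 signal. In the second set 1 cell was dropped for low depth, so that 32 Sca-1-higher cells were set against 31 Sca-1-lower cells, 63 of 192 in all. All cells had the same strain and tissue and were sorted as LSK cells, but no sort day is named per cell. No treatment is named, and the labels' protocols give an age of 8 to 16 weeks for the mice. Marrow was enriched for cKit before the sort. The labels name no animal, so cells could not be assigned to mice, each set of cells counts as 1 sample, and no test across samples was possible.

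Sca-1 is a small GPI-anchored membrane protein encoded by Ly6a, and it is used with cKit to isolate mouse stem and progenitor cells. CD135 is the Flt3 receptor, which appears as cells leave the stem cell state towards multipotent and lymphoid progenitors, so CD135-low LSK cells include the stem cells and progenitors with erythroid, megakaryocytic or myeloid bias. In mouse marrow Sca-1 is lost as progenitors commit to the erythroid and myeloid lineages. Interferon is also known to raise Sca-1 on blood progenitors.

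The Sca-1 signal, which set the split, had a lowest, median and highest value of 1036, 1971 and 7982 arbitrary units in Sca-1-higher cells, against 569, 726 and 1048 in Sca-1-lower cells. At the dividing line the nearest cells were 1068 and 1048 in pool 1 and 1036 and 989 in pool 2, so the sets adjoin each other on a continuous scale. The CD135 limit lay at 340 in pool 1, with the first cell outside it at 341, and at 402 in pool 2, with the first cell outside it at 423. Depth was similar, with a median of 17016 unique molecular identifiers (UMIs, counts of distinct RNA molecules) in genes per Sca-1-higher cell against 19134 per Sca-1-lower cell. The median number of genes detected was 4971 against 5040, and spike-in RNA made up 3.57% against 3.14% of the UMIs in the median cell. The CD135 signal itself had a median of 238 in Sca-1-higher cells and 189 in Sca-1-lower cells. Other stains that the split did not use differed somewhat: the median CD150 signal was 105 against 70.3 and the median CD16/32 signal 572 against 676, while cKit was at 8184 against 8425 and forward scatter at 134500 against 133000. Values in pairs of cells alike in each of these are given below, but whether they cause the differences was not tested. CD127 exceeded 2000 in 1 Sca-1-higher cell and in 2 Sca-1-lower cells. The same 96 cell indices were used in both pools. Genes that mark mature blood cells or stroma were scarce: B cell genes summed to 12 UMIs over all Sca-1-higher cells and 8 over all Sca-1-lower cells, T and NK cell genes to 4 and 26, mature neutrophil genes to 7 and 9, macrophage genes to 11 and 18, endothelial and stromal genes to 48 and 63, and haemoglobin-rich red cell genes to 70 and 48. Pax5, Ltf, Retnlg, S100a8, Vcam1, Flt1 and Alas2, defining genes of those lists, were at 0 in all 63 cells.

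Levels are given as UMIs summed over the cells of a set per 1000000 gene UMIs of that set (CPM), and ratios as log2 of Sca-1-higher over Sca-1-lower, with an exact 95% interval that covers counting error only. A gene was compared where it had at least 20 UMIs in the 63 cells, and counted as higher or lower where its ratio was at least 2-fold and had the same sign in both pools. Of 8273 genes compared, 399 were higher in Sca-1-higher cells, 4.82% of them, and 282 were lower, 3.41%. Those counts carry little on their own. Of the 831 genes at least 2-fold higher in pool 1, 54.9% were above 0 in pool 2 as well, against 52.3% of all genes compared, and of the 650 at least 2-fold lower in pool 1, 51.8% were below 0 in pool 2, against 47.5%. The description therefore goes by lists of genes with known roles and by genes spread over many cells. The lists were chosen with earlier results of these data known, and no difference described has a test across mice.

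Ly6a, the gene of the sorted protein itself, followed the Sca-1 stain. It had a lowest, median and highest count of 0, 0 and 6 UMIs per cell in Sca-1-higher cells and of 0, 0 and 1 in Sca-1-lower cells. At least 1 UMI was seen in 13 of 32 Sca-1-higher cells, 40.6%, and in 4 of 31 Sca-1-lower cells, 12.9%. The mRNA was so sparse that most cells of either set showed none, and the single-cell counts overlap. Summed, Ly6a had 36 UMIs or 58.4 CPM against 4 UMIs or 6.06 CPM, a log2 ratio of 3.27 (1.79 to 5.22). In pool 1 there were 20 UMIs against 0, and in pool 2 there were 16 against 4. Of the 36 UMIs, 33 lay in the 8 cells of each pool with the highest Sca-1 signal, which together ran from 1959 to 7982 units. With cells thinned to 12147 UMIs each, which left out 3 Sca-1-higher cells and 1 Sca-1-lower cell, a Ly6a UMI remained in 9 of 29 and in 2 of 30. The Ly6a ratio was 5.29 between the 10 highest and the 10 lowest Sca-1 cells per pool, and 1.399 in pairs of cells alike in CD16/32. Ly6e, a neighbour in the same family that is not Sca-1, had 321 UMIs against 334 and a log2 ratio of 0.04 (-0.18 to 0.27).

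Genes known from blood stem cells were higher in Sca-1-higher cells as a group. Of 44 genes listed, 28 passed the UMI minimum, 26 of these had a ratio above 0 and 15 were higher by the rule, against 4.82% of all genes. None was lower. The median log2 ratio of the list was 1.04 (0.78 in pool 1, 1.24 in pool 2), while the median of all genes was 0.03. The interval lay wholly above 0 for 18 of the 28, where it did so for 8.03% of all genes, and wholly below 0 for none. A single cell gave more than 20% of the UMIs for 1 of the 28.

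Hlf, a transcription factor of stem cell self-renewal, had a lowest, median and highest count of 0, 16.5 and 41 UMIs per Sca-1-higher cell and of 0, 3 and 29 per Sca-1-lower cell. At least 10 UMIs of it were found in 27 of 32 Sca-1-higher cells and in 11 of 31 Sca-1-lower cells, so that the sets overlap but their centres lie apart. Its log2 ratio was 1.52 (1.28 to 1.76), with 1.42 in pool 1 and 1.64 in pool 2. Mecom, which encodes the stem cell factor Evi1, had 68 UMIs in 21 cells against 18 UMIs in 9 cells, a log2 ratio of 2.02 (1.25 to 2.85). Procr, the endothelial protein C receptor used to sort stem cells, was seen in 14 Sca-1-higher cells with 27 UMIs and in 3 Sca-1-lower cells with 4 UMIs, a log2 ratio of 2.85 (1.33 to 4.83). These are low counts with wide intervals that still exclude equal levels as far as counting error goes.

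**Figure D1:**
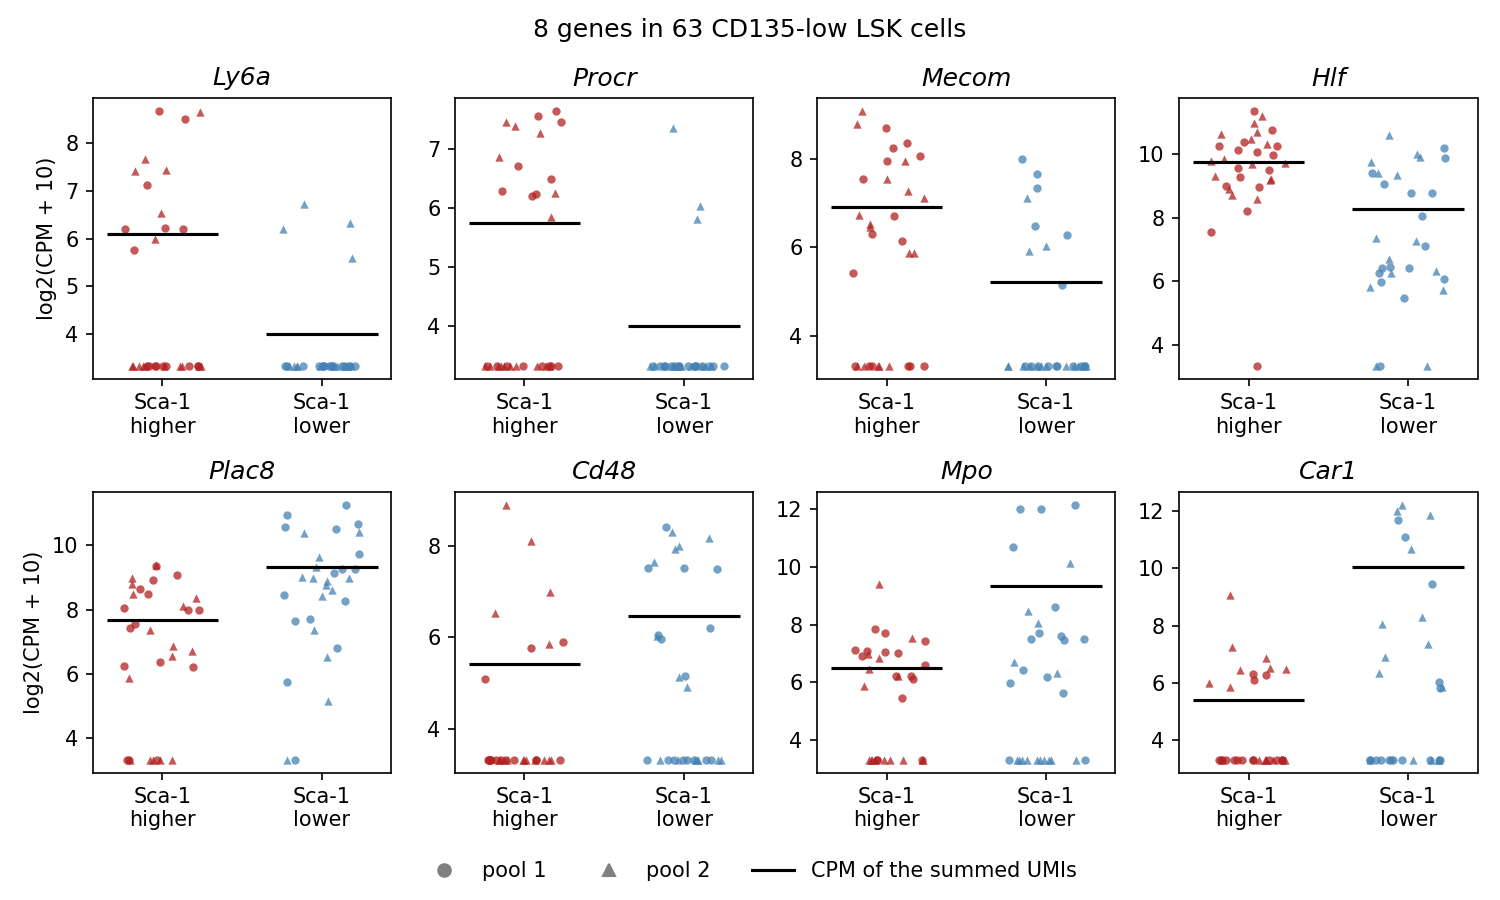
Level of 8 genes in each of 63 CD135-low LSK cells, as log2 of CPM plus 10, with Sca-1-higher cells in red on the left and Sca-1-lower cells in blue on the right of each panel; circles are pool 1, triangles pool 2 and the bar is the CPM of the summed UMIs. Hlf was spread over most Sca-1-higher cells, whereas the Mpo and Car1 bars of the Sca-1-lower cells rest on a few cells.

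Other stem cell genes ran the same way. Mmrn1, encoding multimerin 1, had 48 UMIs against 13 (log2 ratio 1.98), Myct1 100 against 44 (1.28), and Tie1, an endothelial-type receptor tyrosine kinase, 35 against 14 (1.42). Ifitm3 and Ifitm1, membrane proteins that restrict viruses and also mark stem cells, had log2 ratios of 1.29 (0.95 to 1.64) and 1.17 (0.83 to 1.53). Mllt3, a regulator of stem cell maintenance, stood at 1.24 and Pdzk1ip1 at 1.38. Among the 4 members with the most UMIs, Angpt1, the Tie2 ligand, had 504 UMIs against 273 and a log2 ratio of 0.98, just under the 2-fold limit. Cd34 had 248 against 193 (0.46) and Txnip 210 against 153 (0.55), smaller ratios of the same sign in both pools. Tgm2, a transglutaminase, had 22 UMIs in 13 Sca-1-higher cells and 1 UMI in 1 Sca-1-lower cell. Fgd5, a stem cell marker too sparse for the minimum, had 10 UMIs against 1. The list median stayed above 0 under all 22 alternative settings, between 0.33 and 1.24. Mmrn1 (-0.06) and Pdzk1ip1 (-0.13) turned below 0 when Sca-1 was compared within pairs of cells alike in CD150, as did Pdzk1ip1 (-0.65) in pairs alike in total UMIs, and Fgd5 did (-0.08) in pairs alike in cKit.

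The stem cell list followed Sca-1 beyond the dividing line. In 4 bands of Sca-1 signal, each made of 8 cells per pool before the depth filter, the summed level was 1815, 2888, 3891 and 5390 CPM from the lowest band to the highest. Hlf had 158, 450, 618 and 1101 CPM, and Mecom 17.3, 38.3, 77.7 and 145.7 CPM. The steps of the summed level thus lay within each of the compared sets as well as between them. Procr and Ifitm3 also rose at each step, but not every member did. Angpt1 had 383, 447, 880 and 749 CPM over the bands, and Mmrn1 25.9, 12.8, 62.2 and 94.9 CPM. Across the 63 cells the rank correlation of Sca-1 signal with the summed level of the list was 0.70, and it was 0.59 within Sca-1-higher cells and 0.41 within Sca-1-lower cells. It is a description over cells that share 2 library pools. By cell, the summed level was 652, 4667 and 11231 CPM (lowest, median, highest) in Sca-1-higher cells and 659, 2332 and 5692 CPM in Sca-1-lower cells. The highest of the Sca-1-lower cells was exceeded by 10 of the 32 Sca-1-higher cells, and 28 of the 31 Sca-1-lower cells lay below the median of the Sca-1-higher cells.

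**Figure D2:**
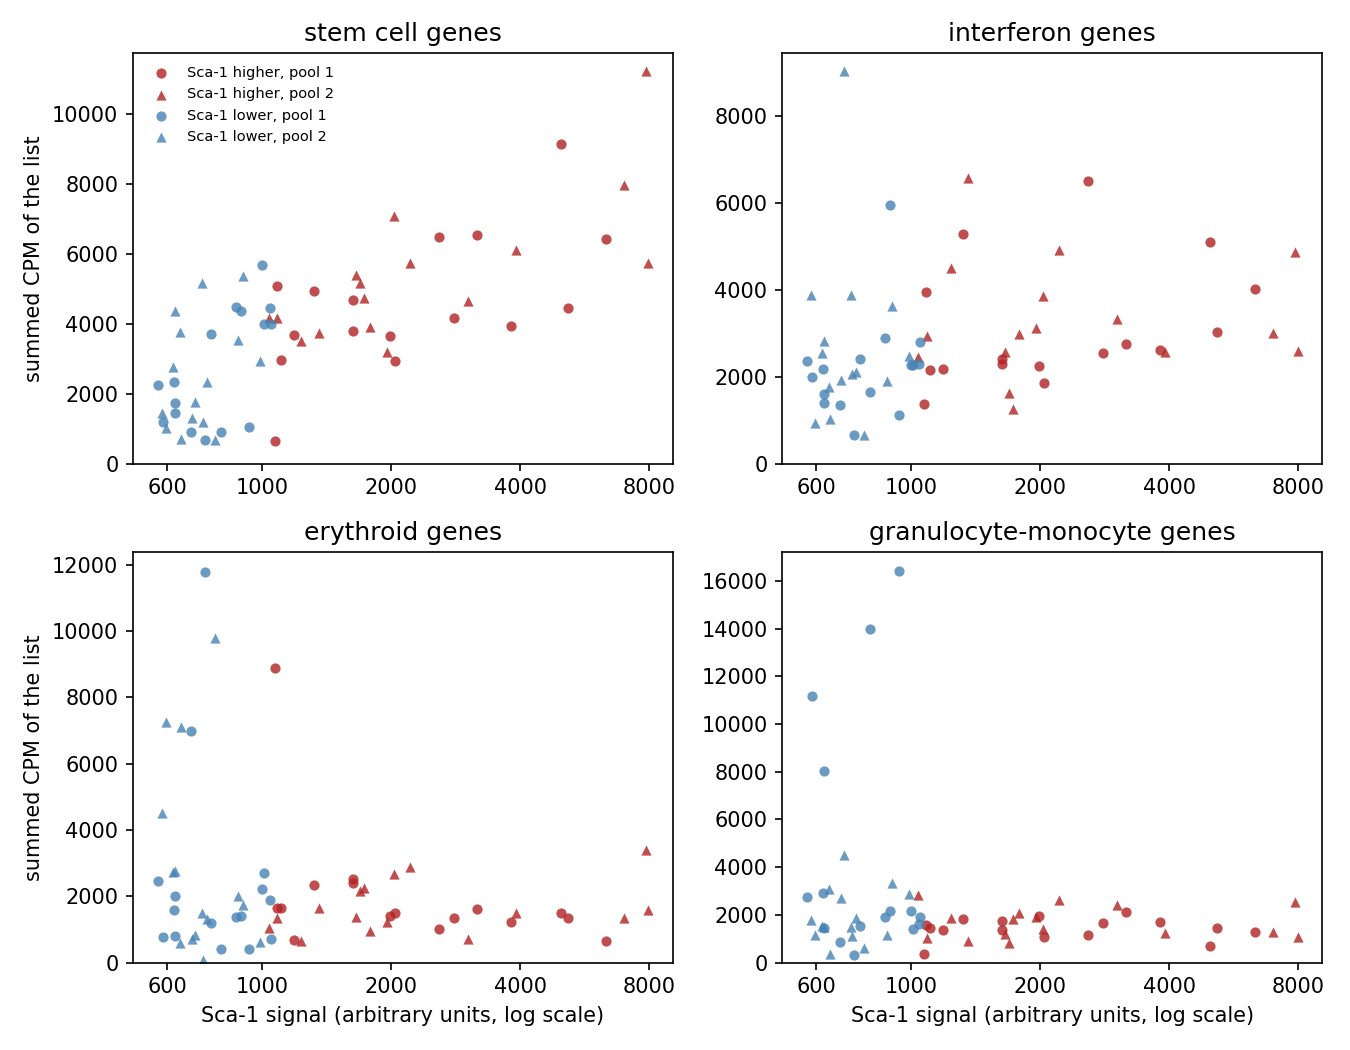
Summed CPM of 4 gene lists against the Sca-1 signal (arbitrary units, log scale) in each of 63 cells; red marks Sca-1-higher and blue Sca-1-lower cells, with circles for pool 1 and triangles for pool 2. The stem cell list climbs along the axis, while the erythroid and granulocyte-monocyte lists have a few high cells among the Sca-1-lower cells and 1 high erythroid cell among the Sca-1-higher cells.

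Hox genes and transcription factors of stem and multipotent cells were also higher on balance, with smaller ratios. Of 24 compared, 20 were above 0 and 6 were higher by the rule, against 4.82% of all genes, with none lower. The median log2 ratio was 0.58 (0.51 in pool 1, 0.71 in pool 2). Hoxa9, a homeobox factor of stem and progenitor cells, had 71 UMIs against 34 (1.16, 0.55 to 1.80), Hoxa10 had 19 against 6 (1.76) and Prdm16, a stem cell maintenance factor, had 23 against 9 (1.45). The others past 2-fold were the homeobox genes Hoxb4 (1.29), Pbx3 (1.61) and Nkx2-3 (1.46), each in few molecules. In pairs of cells alike in CD150 and in pairs alike in total UMIs, Pbx3 was -0.55 and -0.58 and Hoxb4 -0.14 and -0.17. Meis1, the partner of Hoxa9, was seen in all 32 Sca-1-higher cells and in 29 Sca-1-lower cells, with 270 UMIs against 150 and a log2 ratio of 0.95 in each pool. Msi2, an RNA-binding regulator, stood at 0.67 and Lmo2, an adaptor of stem cell transcription complexes, at 0.53. Myb, a factor of proliferating progenitors, had 336 UMIs against 370, a log2 ratio of -0.04 (-0.26 to 0.18), which is no measurable difference.

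Interferon-induced genes were mostly higher in Sca-1-higher cells. Of 39 compared, 34 were above 0 and 8 were higher by the rule, against 4.82% of all genes, with none lower. The median log2 ratio was 0.45 (0.74 in pool 1, 0.40 in pool 2). The members with the clearest ratios encode GTPases and other effectors of defence inside the cell. Iigp1, an immunity-related GTPase, had 25 UMIs against 3 (3.16), although 1 cell held 35.7% of them. Oasl2, an oligoadenylate synthetase-like protein, had 48 against 18 (1.51), Irgm2 38 against 15 (1.44), Gbp2 37 against 17 (1.22) and Shisa5 81 against 37 (1.23), while Tgtp1 stood at 220 against 103 CPM (1.10, 0.67 to 1.54). Xaf1 (1.68) and Ifi44 (1.10) completed the 8; Ifi44 was -0.60 in pairs of cells alike in CD150 and -0.24 in pairs alike in total UMIs. Tgtp1 and its copy Tgtp2 differed by at most 1 UMI in all 50 cells that had either, so their counts cannot be told apart. The abundant members differed less: Ifi203 had 213 against 160 UMIs (0.51), Psme1 180 against 191 CPM (-0.08) and Ifi47 96 against 113 UMIs (-0.14). Ifi203 overlaps Mndal on the same strand, and Irgm2 overlaps Igtp.

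The interferon list depended on how the cells were matched. When the higher of each pair of cells alike in CD150, in CD16/32 or in total UMIs was set against the lower, the median was -0.21, -0.09 and -0.12, and it was 0.06 in pairs alike in cKit. Tgtp1 became -0.27, Oasl2 -0.19 and Ifi203 -0.06 in the CD150 pairs, and Tgtp1 -0.36 and Irgm2 -0.21 in the pairs by total UMIs. Pairing also moved 6 to 9 cells from each set to the other and lowered the median Sca-1 signal of the higher set to between 1672 and 1784 units, so it weakens the contrast as it matches the cells. By cell, the list's summed level was 1246, 2852 and 6579 CPM in Sca-1-higher cells and 659, 2182 and 9043 CPM in Sca-1-lower cells, and the highest cell of all was a Sca-1-lower one. Over the bands of Sca-1 signal the level was 2239, 2230, 2850 and 3273 CPM from low to high. MHC class I genes, also induced by interferon, had 3556, 4279, 4593 and 5458 CPM over the same bands. Their median log2 ratio was 0.37 (0.44 in pool 1 but only 0.07 in pool 2), with 8 of 12 above 0 and none past 2-fold. The median stayed above 0 under all 22 alternatives, though the lowest, 0.07, was close to 0.

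The promoters of 3 of these GTPase genes are shown because each carries, just upstream of its start, the pattern GAAANNGAAA on one strand or the other, the core of the element bound by interferon-activated factors. The sequences are 60 bases of the RefSeq promoter table on GRCm38.p6, read along the strand of the gene, with the match in capitals; Gbp2 is at chr3:142620579-142620638 on the plus strand, Tgtp1 at chr11:48992289-48992348 on the minus strand and Irgm2 at chr11:58214888-58214947 on the plus strand.
Gbp2: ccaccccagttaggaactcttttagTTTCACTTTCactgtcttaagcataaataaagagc
Tgtp1: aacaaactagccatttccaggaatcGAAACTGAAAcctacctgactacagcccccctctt
Irgm2: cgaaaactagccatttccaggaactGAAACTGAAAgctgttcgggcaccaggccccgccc
The match begins 59 bases before the start of Gbp2, 77 before that of Tgtp1 and 64 before that of Irgm2, and Gbp2 holds it on the opposite strand. Tgtp1 and Irgm2 carry the same 10 letters and share 40 of 60 positions when laid side by side without gaps. Searched on both strands from 250 bases before to 50 after each start, the pattern was in 3.44% of 32851 promoters and in 19 of the 32 compared interferon genes with an entry. Among the 7 genes higher by the rule that have an entry it was in 4, the above and Shisa5, and these letters were not in the windows of Ifi44, Oasl2 and Xaf1. The share among the genes higher by the rule was thus close to that of the whole list. A match of letters is not a bound site.

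Erythroid genes were lower on balance in Sca-1-higher cells, and the difference lay in few cells. Of 25 compared, 9 were lower by the rule, against 3.41% of all genes, and none was higher, yet the median log2 ratio was only -0.29 (-0.12 in pool 1, -1.17 in pool 2). The interval lay wholly below 0 for 10 of the 25, where it did so for 6.49% of all genes. For 12 of the 25 a single cell gave more than 20% of the UMIs, and the other 13 had a median of 0.02. Car1, carbonic anhydrase 1, a gene of early erythroid progenitors, had 0, 0 and 5 UMIs per cell (lowest, median, highest) in Sca-1-higher cells and 0, 0 and 234 in Sca-1-lower cells. The sums were 20 UMIs or 32.4 CPM against 694 UMIs or 1051 CPM, a log2 ratio of -5.02 (-5.74 to -4.38), with -5.52 in pool 1 and -4.73 in pool 2. At least 10 Car1 UMIs were found in 0 of 32 Sca-1-higher cells and in 7 of 31 Sca-1-lower cells, 3 of pool 1 and 4 of pool 2, which held 674 of the 694. The median cell of both sets thus had no Car1, and the difference is one of a minority of cells.

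Klf1, the master regulator of erythroid genes, had 5 UMIs in 1 Sca-1-higher cell and 34 UMIs in 6 Sca-1-lower cells, a log2 ratio of -2.67. Gata1, its upstream partner factor, had 10 against 28 (-1.39), Ermap, an erythroid membrane protein, 10 in 2 cells against 55 in 6 cells (-2.36), and Blvrb, biliverdin reductase B, 18 against 54 (-1.49). Epor, the erythropoietin receptor, had 6 against 10 UMIs, too few to compare. Car2, which is shared by erythroid and multipotent cells, went another way, with 637 UMIs against 556 and a log2 ratio of 0.29; the value was -0.01 in pool 2 alone, -0.18 with the 24 lowest CD135 cells and -0.26 with the 40 lowest. The 7 cells with at least 10 Car1 UMIs had 659 to 2239 CPM of stem cell genes, all under the Sca-1-lower median of 2332. The split between the sets was not complete either: the Sca-1-higher cell nearest the line in pool 1, at 1068 units, had 8889 CPM of erythroid genes, 652 CPM of stem cell genes, all 5 Klf1 UMIs of its set, 9 of its 10 Ermap UMIs and no Hlf. The median of the erythroid list was 0.0016 in pairs alike in CD135 and 0.36 in pairs alike in forward scatter. In the forward scatter pairs the direction turned for Car1 (0.16), Klf1 (0.48), Gata1 (0.73) and Blvrb (0.36), with 7 cells of each set changing places. Klf1 was also at 0.06 in pairs by CD150 and at 0.07 in pairs by CD16/32.

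Megakaryocyte and platelet genes did not follow the erythroid ones. Of 11 compared, 10 were above 0, 2 were higher by the rule, against 4.82% of all genes, and none was lower. The median log2 ratio was 0.60 (0.42 in pool 1, 0.55 in pool 2). Gp9, a platelet glycoprotein, had 19 UMIs against 7 (1.54). Pf4, platelet factor 4, was under the minimum with 17 UMIs in 13 cells against 2 in 2 cells. Fli1 had 68 against 44 (0.73), Plek 52 against 47 (0.24), Zfpm1, the partner of Gata1, 60 against 61 (0.07) and Nfe2 59 against 50 (0.34). Itga2b, encoding CD41, had 25 against 21 and Vwf 2 against 1, both of which allow no direction. The Sca-1-lower cells had erythroid genes in a minority of cells, while the megakaryocyte list was on the Sca-1-higher side, which goes against the name erythro-megakaryocytic for the whole set. The list median was -0.01 in pairs alike in CD150 and -0.20 in pairs alike in CD16/32, where Gp9 was -0.01 and -0.22; Gp9 was also -0.04 in pairs by cKit.

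Granulocyte and monocyte genes were lower in Sca-1-higher cells in pool 1 and not in pool 2. Of 22 compared, 6 were lower by the rule, against 3.41% of all genes, and 1 was higher, against 4.82%. The median log2 ratio was -0.70, made of -1.12 in pool 1 and 0.14 in pool 2. Mpo, the myeloperoxidase of neutrophil granules, had 0, 1 and 10 UMIs per cell (lowest, median, highest) in Sca-1-higher cells and 0, 1 and 121 in Sca-1-lower cells. It summed to 50 UMIs against 420, a log2 ratio of -2.97 (-3.43 to -2.55), with -3.74 in pool 1 and -0.60 in pool 2. At least 10 Mpo UMIs were found in 1 Sca-1-higher cell and in 5 Sca-1-lower cells, 4 of them in pool 1. Elane, neutrophil elastase, had 4.86 against 235 CPM, with 68.4% of its UMIs in 1 cell and none in pool 2. Ctsg, cathepsin G, had 0 UMIs against 58 in 5 cells. With the Sca-1-higher set placed at a floor of 3 UMIs, it was 18.1-fold lower there, a value that depends on the floor. In pool 2 it had 3 UMIs, all in 1 Sca-1-lower cell. Prtn3, proteinase 3, had 82 against 186 (-1.08), but 0.39 in pool 2. Cebpa, the factor that starts the granulocyte programme, had 5 against 27 (-2.33), and Nkg7, a granule membrane protein, had 24 against 58 (-1.17). Tyrobp, a signalling adaptor of myeloid cells (-1.49), and Alas1, the first enzyme of haem synthesis outside red cells (-1.19), were the remaining ones past 2-fold beside Plac8. Tyrobp was 0.38 with the 24 lowest CD135 cells per pool and 0.24 in pairs alike in CD16/32, and Alas1 was 0.09 in pairs alike in cKit. Gfi1, a repressor that also keeps stem cells quiescent, was the 1 member higher by the rule, with 14 against 7 (1.10) but -0.70 in pairs alike in CD16/32, and Lyz2, lysozyme, had 91 against 52 (0.91).

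Part of these genes' excess lay in cells with a high CD16/32 signal. CD16/32 are Fc receptors used to gate granulocyte-monocyte progenitors, and within Sca-1-lower cells the rank correlation of their signal with the summed granulocyte-monocyte level was 0.71 over 31 cells. It was 0.16 within Sca-1-higher cells and 0.46 over all 63 cells, with 0.58 in pool 1 and 0.26 in pool 2, as a description over cells of 2 library pools. The summed level was 343, 1461 and 2844 CPM (lowest, median, highest) in Sca-1-higher cells and 330, 1875 and 16404 CPM in Sca-1-lower cells, where 9 cells exceeded the highest Sca-1-higher cell. Of these 9, 3 had a CD16/32 signal under 1000, the lowest at 292. Leaving out the cells with a CD16/32 signal above 1000, 5 Sca-1-higher and 9 Sca-1-lower ones, turned the list median to 0.47. Of the 13 members that kept at least 20 UMIs, 9 were above 0 and 4 below. Mpo then had 42 UMIs against 29 (0.55) and Prtn3 67 against 49 (0.47), while Nkg7, with 15 against 35 (-1.20), and Plac8, with 91 against 196 (-1.09), stayed lower in Sca-1-higher cells. Elane had 2 UMIs against 1 and Cebpa 5 against 4, too few to compare. In pairs alike in cKit the list median was 0.20. Elane was also above 0 in pairs by cKit (1.33), CD16/32 (1.47) and total UMIs (1.24), as was Prtn3 (0.11) in the CD16/32 pairs. No cell held 10 UMIs of both Car1 and Mpo. However, only 7 Sca-1-lower cells reached 10 for Car1, and only 1 Sca-1-higher and 5 Sca-1-lower cells for Mpo. With so few of the 63 cells, the lack of overlap cannot tell whether the 2 genes exclude each other.

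**Figure D3:**
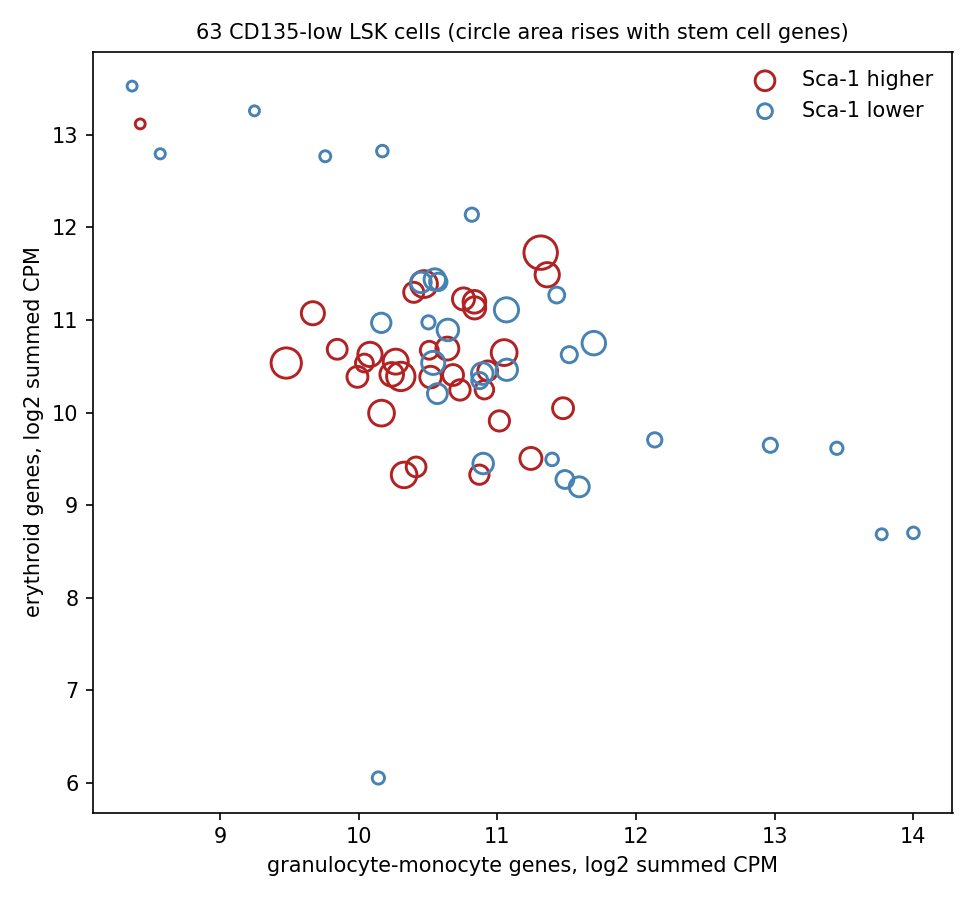
Summed level of erythroid genes against that of granulocyte-monocyte genes, both as log2 of summed CPM, in each of 63 cells; red circles are Sca-1-higher and blue circles Sca-1-lower cells, and the circle area increases with the summed CPM of stem cell genes. Small blue circles form 2 arms, high in 1 list and low in the other, with 1 red circle in the erythroid arm, and the larger circles lie together in the middle.

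Plac8, a small cysteine-rich protein of myeloid and lymphoid progenitors, was lower in Sca-1-higher cells, both in the median cell and in the sum. It had 0, 3.5 and 13 UMIs per cell (lowest, median, highest) in Sca-1-higher cells and 0, 9 and 52 in Sca-1-lower cells, and no cell held over 9.63% of its UMIs. Its sums were 119 UMIs against 421, a log2 ratio of -1.72 (-2.03 to -1.43), with -2.02 in pool 1 and -1.31 in pool 2. The 5 Sca-1-lower cells with at least 10 Mpo UMIs held 196 of the 421. Without the cells that had 10 Mpo UMIs, Plac8 had 115 UMIs in 31 Sca-1-higher cells against 225 in 26 Sca-1-lower cells, a log2 ratio of -1.12. By band of Sca-1 signal, Plac8 stood at 686, 584, 205 and 180 CPM from low to high. Cd48, which encodes a surface protein that stem cells lack, had 20 UMIs in 8 Sca-1-higher cells and 52 in 16 Sca-1-lower cells, a log2 ratio of -1.28 (-2.10 to -0.51). It had 86.4, 70.2, 59.05 and 3.39 CPM over the bands, the last of these from 1 UMI in 16 cells.

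Genes of mast cells, basophils and eosinophils were in part lower in Sca-1-higher cells. Of 7 compared, 4 were lower by the rule, against 3.41% of all genes. For 5 of the 7 a single cell gave more than 20% of the UMIs. Cpa3, the mast cell carboxypeptidase, had 25.9 against 283 CPM (-3.45, -4.28 to -2.71), with -3.49 in pool 1 and -3.40 in pool 2. At least 10 Cpa3 UMIs were found in 0 Sca-1-higher cells and in 5 Sca-1-lower cells, and 5 cells held 76.4% of all Cpa3 UMIs. Ccl9, a chemokine of myeloid cells, had 2 UMIs against 39 (-4.19), Lmo4, a LIM-domain cofactor, 66 against 189 (-1.42), and Il1rl1, the interleukin-33 receptor, 3 against 21 (-2.71). Without the 5 genes of which 1 cell gave more than 20% of the UMIs, the list median of -2.71 became 0.38, from 2 genes.

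Lymphoid priming genes had no common direction. Of 19 compared, 11 were above 0, 2 were lower by the rule, against 3.41% of all genes, and none was higher. The median log2 ratio was 0.10. Satb1, a chromatin organiser of lymphoid priming, had 44 UMIs against 98 (-1.06, -1.60 to -0.53), and the level over the bands was 164.2, 131, 93.2 and 47.4 CPM from low to high Sca-1. Satb1 overlaps the transcript 5830444F18Rik on the same strand, which had 3 UMIs against 21, so the 2 may share reads. Ighm, the mu heavy chain gene, had 9 against 22 (-1.19), and Dntt, which adds bases where antigen receptor genes are joined, 31 against 54 (-0.70) but 0.14 in pool 2. Bcl11a (0.41), Mef2c (0.50) and Tcf4 (0.44), regulators of early lymphoid cells, were modestly above 0, and Ikzf1 was at -0.22 (-0.60 to 0.15). Bcl11a was -0.18 in pairs alike in cKit, and Mef2c -0.07 there and -0.23 in pairs alike in CD16/32. Dach1, the factor named in the study's title, had 152 UMIs against 99 (0.72), with 0.26 in pool 1 and 1.46 in pool 2; the value was -0.45, -0.09 and -0.57 in pairs by forward scatter, CD150 and CD16/32.

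Genes of growth and division gave smaller or divided values. Myc targets and ribosome biogenesis genes were lower in Sca-1-higher cells in small steps, with 25 of 29 below 0. By the rule 1 was lower, against 3.41% of all genes, Rrp9 with 10 UMIs against 29 (-1.44). The median log2 ratio was -0.36 (-0.27 in pool 1, -0.51 in pool 2). Npm1, nucleophosmin, had 633 UMIs against 909 (-0.42, -0.57 to -0.28) and Ncl, nucleolin, 534 against 734 (-0.36). The list's level fell over the Sca-1 bands, with 5273, 5058, 4199 and 3906 CPM from low to high. The direction turned for Npm1 (0.20) and Rrp9 (0.03) in pairs alike in forward scatter, for Rrp9 (0.07) in pairs by CD16/32, for Ncl (0.04) in pairs by total UMIs and for the list median (0.04) in pairs by CD16/32. Cdk6, a kinase of cell cycle entry, had 170 UMIs against 306, or 3.5 against 10 in the median cell, a log2 ratio of -0.75 (-1.03 to -0.47). Genes of oxidative phosphorylation had a median of -0.16 (0.02 in pool 1, -0.33 in pool 2), with 33 of 46 below 0 and none past 2-fold. S-phase genes had a median of -0.01 over 32 members (0.12 in pool 1, -0.57 in pool 2). Mitosis genes had 2.11 in pool 1 and -1.71 in pool 2, and for 22 of 27 a single cell gave more than 20% of the UMIs, so no direction can be drawn. Genes of quiescence and Cdk inhibitors had a median of 0.08, and immediate early genes one of -0.10.

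**Figure D4:**
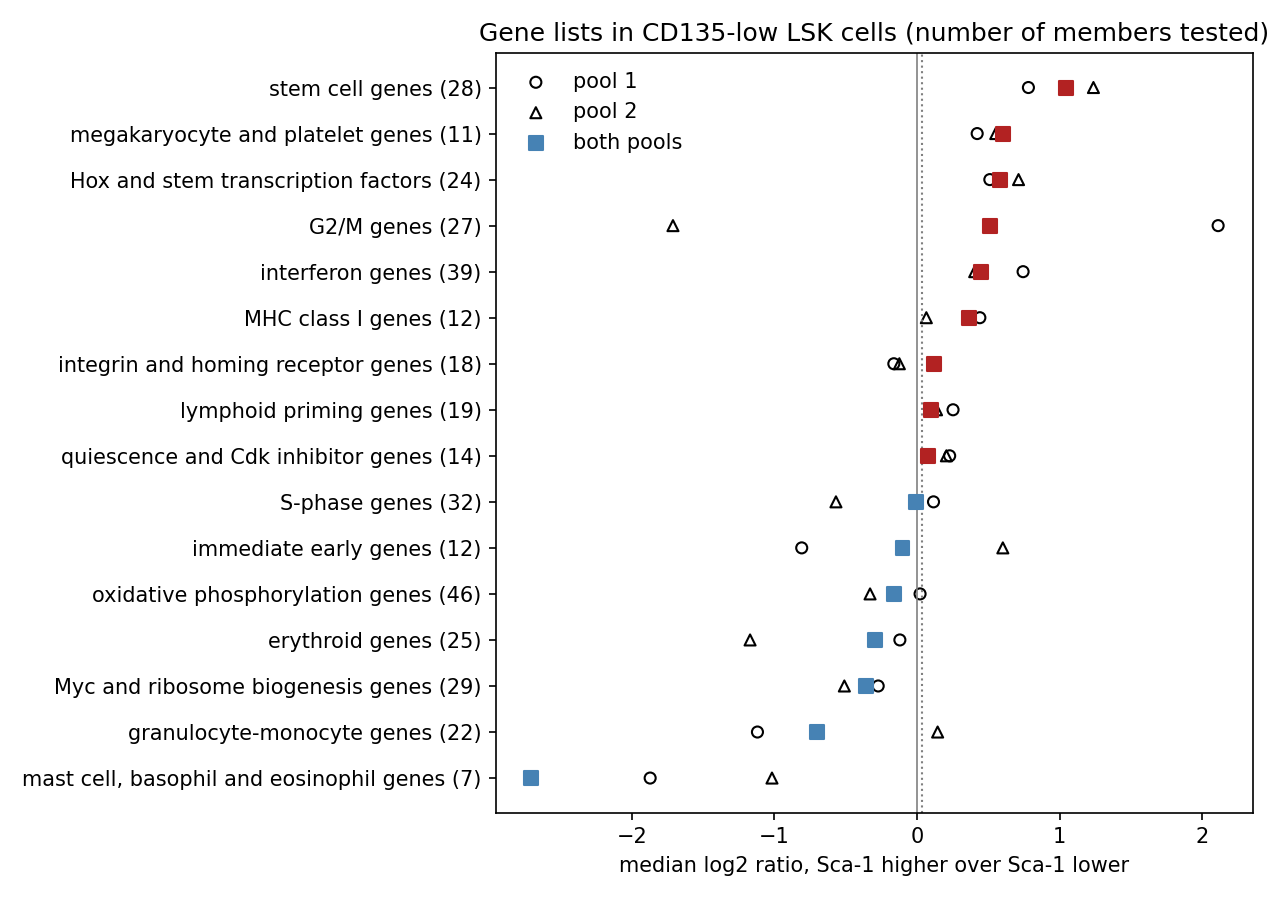
Median log2 ratio of Sca-1-higher over Sca-1-lower cells for 16 gene lists, with the number of members compared in parentheses; squares are both pools together (red above 0, blue below), open circles pool 1, open triangles pool 2, and the dotted line is the median of all 8273 genes. The stem cell list lies above 0 in each pool. The G2/M, immediate early, granulocyte-monocyte, S-phase and oxidative phosphorylation lists lie on different sides of 0 in the 2 pools.

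The genes of the other stained proteins told less. Kit, the gene of cKit, was detected in all 63 cells with 346 UMIs against 307 (0.27) and was -0.07, -0.09 and -0.03 in pairs by forward scatter, CD150 and CD16/32. Flt3, the gene of CD135, had 67 UMIs against 57 (0.33, -0.20 to 0.87). Slamf1, the gene of CD150, had 7 against 5, Itgam (CD11b) 9 against 7, Fcgr2b 5 against 6, and Il7r (CD127) 0 against 3, all too low for a ratio. Fcgr3, of the CD16/32 pair, had 1 UMI against 12, of which 1 cell held 7. Among integrins and homing receptors, 2 of 18 were higher by the rule, against 4.82% of all genes, and 3 lower, against 3.41%. Itga6, an integrin chain of stem cells, had 96 UMIs against 47 (1.13, 0.61 to 1.66), and Itgal, a leukocyte integrin chain, 3 against 19 (-2.56). The others past 2-fold were Esam, an adhesion molecule of stem cells and endothelium (1.10, but -0.0447 in pairs alike in CD135), on the higher side, and Itgb2, the partner of Itgal (-1.26), and S1pr1, a receptor for exit into blood (-1.04), on the lower side. Ptprc, the gene of CD45, stood at 0.25 (-0.04 to 0.55).

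A rule that did not use the lists, but the same ratios of the same cells, gave 14 genes in each direction. It took genes with at least 50 UMIs whose sign was shared by the pools and of which no single cell gave more than 20%, ranked by how far the interval lay from 0. On the higher side were Hlf, Mecom, Mmrn1, Ifitm1, Ifitm3, Angpt1 and Myct1 of the stem cell list, and 7 others. The list was chosen with earlier results of these data known, so this overlap is no separate support for it. Hacd4, a dehydratase of fatty acid elongation, had the highest ratio, with 42 UMIs against 9 (2.32, 1.26 to 3.55); Focad, on the opposite strand across it, had 11 against 23. Uba7, the enzyme that activates the interferon-induced modifier Isg15, had 55 against 17 (1.79), Trp53i11 55 against 18 (1.71), and Gimap8, a GTPase of immune cells, 39 against 13 (1.68). Gcnt2, a glycosyltransferase, had 170 against 76 (1.26), and Gvin1, a large interferon-inducible GTPase, 190 against 88 (1.21), while Atp2b4, a calcium pump of the plasma membrane, stood at 254 against 109 CPM (1.22). The counts of Gvin1 and Gm4070 differed by at most 1 UMI in 44 of 46 cells, so they may share reads.

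On the lower side were Plac8, Satb1 and Blvrb, and Calr, a chaperone of the endoplasmic reticulum, with 223 UMIs against 410 (-0.78, -1.02 to -0.54). Zeb2, a zinc-finger factor of progenitor differentiation, had 43 against 127 (-1.46) and was seen in 21 Sca-1-higher and 24 Sca-1-lower cells. Ugcg, the glucosylceramide synthase, had 40 against 118 (-1.46), and Ifngr1, a chain of the interferon-gamma receptor, had 32 against 93 (-1.44). Apoe, the lipid carrier, had 80 against 173 (-1.01), and 152 of the 173 UMIs lay in the lowest band of Sca-1 signal, made of the 8 lowest cells of each pool. Kcnq1ot1, an imprinted non-coding RNA antisense to Kcnq1, had 261 against 536 (-0.94, -1.16 to -0.72). The remaining genes were Atp13a3 (-1.31), Zfp217 (-1.33), Tent5a (-1.11), Wdr83os (-1.49) and Pabpc4 (-0.95). Pabpc4 was 0.07 in pairs by forward scatter and Wdr83os 0.11 in pairs by CD16/32.

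**Figure D5:**
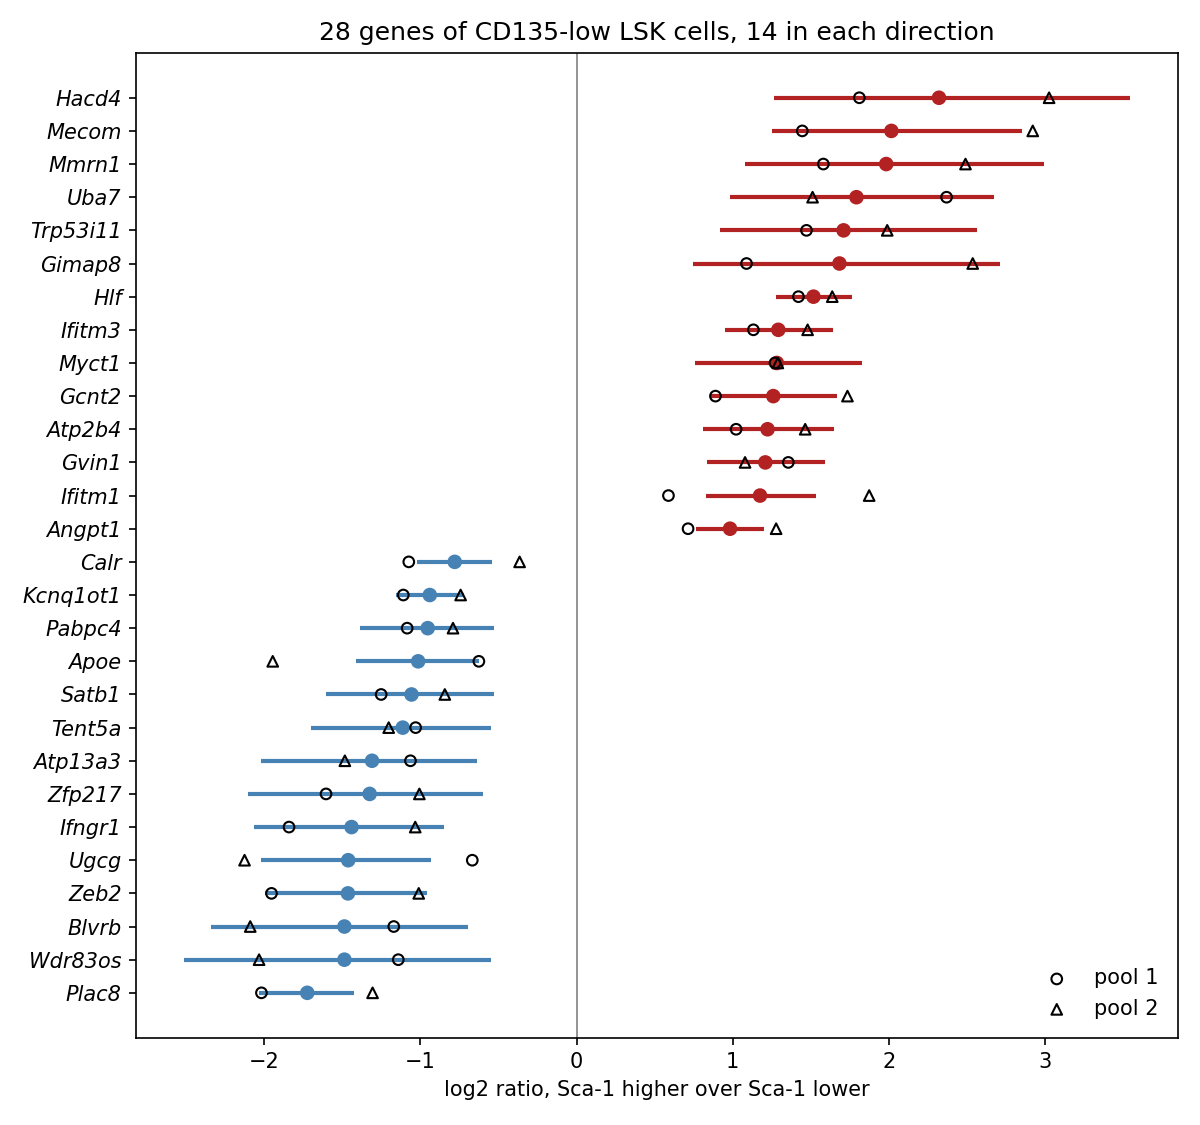
Log2 ratio of Sca-1-higher over Sca-1-lower cells for 28 genes; filled points are both pools, bars the exact 95% interval of counting error, open circles pool 1 and open triangles pool 2. The 14 genes in red lie above 0 and the 14 in blue below 0 in both pools, which the choice of the genes requires.

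The same split was made at the other end of the CD135 signal. In the 64 cells with the highest CD135 signal, 32 per pool, the stem cell list had a median log2 ratio of 0.60 for Sca-1-higher over Sca-1-lower cells, with 17 of 20 members above 0 and 6 higher by the rule, where 4.13% of all genes were. Ly6a had 45 UMIs against 9 there (2.33, 1.28 to 3.55), Hlf 0.58 (0.35 to 0.82), Mecom 1.05 and Plac8 -0.55 (-0.79 to -0.31). Car1 had 21 UMIs against 11 there (0.94, -0.18 to 2.14). Mpo had 65 against 78 (-0.26, -0.76 to 0.24), on the lower side in both pools with an interval that includes 0. For Hlf the interval did not overlap that of the CD135-low cells, and the same held for Plac8 and Mpo; these intervals cover counting error only, and the difference between the CD135 classes was not tested across animals. Within the CD135-low cells, a split of the same cells by cKit in place of Sca-1 gave a stem cell median of -0.19, with 0.24 in pool 1 and -0.66 in pool 2, and Hlf at -0.21 for cKit-higher over cKit-lower cells. Part of the Sca-1-lower pattern also appeared on the cKit-lower side. The granulocyte-monocyte median was -1.22, with -1.33 in pool 1 and -0.40 in pool 2. Mpo stood at -2.76, but at -3.42 in pool 1 and 0.11 in pool 2. Elane stood at -6.60, with no UMIs in pool 2. Cpa3 was at -2.85, Plac8 at -1.22 and Satb1 at -1.93, each below 0 in both pools. Car1, lower in Sca-1-higher cells, was instead on the cKit-higher side, with 647 UMIs against 67 (2.95, 2.59 to 3.34). Procr, a stem cell gene higher in Sca-1-higher cells, was on the cKit-lower side, at -1.39. Both splits use the same 63 cells. Of the Sca-1-higher cells 16 of 32, and of the Sca-1-lower cells 16 of 31, were on the cKit-higher side.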

How the data were processed

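The authors deposited raw UMI counts per gene and cell from an adapted CEL-seq2 protocol, per the labels' protocols, with no normalization. The primers carried an 8-base cell index and a 6-base UMI. The sources used here do not name an aligner or counter. The submitters' processing notes name build GRCh38, a human build, although the identifiers are mouse; symbols and overlaps come from GENCODE M21 (GRCm38) by identifier. Of 20764 genes, 234 had no symbol; 71 spike-ins were left out. Whether counting used strand is not stated, so overlapping genes are uncertain.

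Pools follow the first index of the title. Cells under 20% of their pool's median gene UMIs were dropped after ranking: 1 Sca-1-lower cell with 708 UMIs. The sets held 616918 and 660435 gene UMIs. Cells were sorted singly and doublets were not called. UMIs were summed per set, divided by gene UMIs and scaled to 1000000. Ratios have exact conditional binomial 95% intervals; a side at 0 was set to 3 UMIs. Cells are not replicates, so no p-value is given. The members and lists were chosen with earlier results of these data known. Named were genes by the rule stated in the text, list members with the most UMIs or past 2-fold, stained proteins' genes, and Dach1, Tgm2, Cpa3, Ccl9, Ly6e, Cdk6 and Lyz2; those described were picked with values known. The calculations were tested on simulated data. Tools were Python 3.11.15, pandas 2.3.3, scipy 1.17.1, R 4.3.3 and edgeR 4.0.16 (TMM factors only). A gene of the megakaryocyte list is not reported here by name.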

Additional observations from a re-analysis of the deposited data

How the results depend on the processing

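Values were recomputed under 22 other settings; haemoglobin genes had a value in 18 of them, Il7r in 20, and Elane and Ctsg in 21. The normalization, the filters, the weight of a cell, the pools, the CD135 limit, the width of the Sca-1 contrast and the pairing of cells by CD135, cKit, forward scatter or CD150 were planned; pairing by CD16/32 or gene UMIs and leaving out cells with CD16/32 above 1000 were chosen after seeing the data. TMM factors, totals without 3 abundant genes, keeping the dropped cell and leaving out CD127-high cells turned no list or gene whose direction was clear from counting error. A further setting left out the top cell of each single gene. For the lists it instead left out the genes of which 1 cell gave more than 20% of the UMIs. The median of the remaining genes, at their main ratios, was 0.02 for 13 erythroid genes and 0.38 for 2 mast cell genes. The cause of the changes below was not tested, except that pairing by construction moves cells between the sets.

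The counts of genes higher and lower were 815 and 580 with no filter and 79 and 59 with a minimum of 50 UMIs, and 251 were higher in pairs by forward scatter. The megakaryocyte median was 0.50 with median-of-ratios factors, 0.47 with equal weight for each cell, where haemoglobin genes stood at -0.19, 0.46 as a mean over pools, 0.17 with no filter and 0.48 with the 50-UMI filter. In pool 1 alone it was 0.31 and the surface protein genes stood at -0.11. Pool 2 alone gave 0.97 for megakaryocyte, -1.75 for erythroid, 0.39 for granulocyte-monocyte and -1.78 for G2/M genes, with Car2 at -0.0119, Dntt at 0.14 and Prtn3 at 0.39. With the 24 lowest CD135 cells per pool, interferon genes stood at 0.84, erythroid at -1.23, megakaryocyte at 0.84, G2/M at -0.85, Car2 at -0.18 and Tyrobp at 0.38. With the 40 lowest, erythroid genes were at -1.48, haemoglobin genes at -2.75 and Car2 at -0.26. The 10 highest against the 10 lowest Sca-1 cells per pool gave erythroid genes -1.96, megakaryocyte 0.30 and Ly6a 5.29.

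Pairs by CD135 gave megakaryocyte genes 0.38, erythroid genes 0.0016 and G2/M -1.76. Pairs by cKit gave stem cell genes 0.55, interferon genes 0.0645, megakaryocyte 0.11, granulocyte-monocyte 0.20 and G2/M -1.24, with Alas1 at 0.0868, Bcl11a -0.18, Elane 1.33, Fgd5 -0.0831, Gp9 -0.0424 and Mef2c -0.0742. Pairs by forward scatter gave stem cell genes 0.57, megakaryocyte 0.37 and erythroid 0.36, with Blvrb at 0.36, Car1 0.16, Dach1 -0.45, Gata1 0.73, Kit -0.0737, Klf1 0.48, Npm1 0.20, Rrp9 0.0312 and Pabpc4 0.0662. Pairs by CD150 gave stem cell genes 0.55, interferon -0.21 and megakaryocyte -0.0102, with Dach1 at -0.0907, Gp9 -0.0102, Ifi203 -0.0644, Kit -0.0854, Klf1 0.0638, Mmrn1 -0.0575, Oasl2 -0.19, Pbx3 -0.55, Pdzk1ip1 -0.13 and Tgtp1 -0.27. Pairs by CD16/32 gave stem cell genes 0.33, interferon -0.0918, megakaryocyte -0.20, ribosome biogenesis 0.0432 and surface protein genes -0.18, with Dach1 at -0.57, Elane 1.47, Gp9 -0.22, Kit -0.0308, Klf1 0.0742, Ly6a 1.399, Mef2c -0.23, Prtn3 0.11, Rrp9 0.0742, Tyrobp 0.24 and Wdr83os 0.11. Pairs by gene UMIs gave stem cell genes 0.69, interferon -0.12, megakaryocyte 0.24 and haemoglobin genes -3.37, with Elane at 1.24, Irgm2 -0.21, Ncl 0.0421, Pbx3 -0.58, Pdzk1ip1 -0.65 and Tgtp1 -0.36. Without cells of CD16/32 above 1000, granulocyte-monocyte genes stood at 0.47 and G2/M at -0.73, with Cebpa at 0.34 and Elane at 1.02, both under 20 UMIs there, Mpo 0.55 and Prtn3 0.47.

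Of all recomputed values of single genes and further lists, 2217 moved by less than their interval, 441 by more, and 62 with a clear direction changed sign. Of those of the counts of genes, Ly6a and the stem cell, interferon, erythroid, megakaryocyte and granulocyte-monocyte lists, 137 moved by less than the spread set for them, 34 by more, and 5 with a clear direction changed sign. The 5 were the interferon median in 3 settings and the megakaryocyte median in 2. A list had a clear direction only where a large majority of its members shared it. The erythroid and granulocyte-monocyte lists had none, and the median of each was above 0 in 3 of 22 settings. With 1 sample a side, depth limits the precision for genes under 50 UMIs, and the spread between mice is unknown. No paired analysis was possible because the labels give no replicate numbers.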

Other observations

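Predicted models and pseudogenes were kept out of the named genes, but 2 processed pseudogenes had larger sums than most named genes on the lower side. Gm9320 had 79 UMIs in 24 Sca-1-higher cells and 318 UMIs in 29 Sca-1-lower cells, a log2 ratio of -1.91 (-2.29 to -1.55), with -2.15 in pool 1 and -1.59 in pool 2. Gm6030 had 84 UMIs in 27 Sca-1-higher cells and 316 UMIs in 27 Sca-1-lower cells, a log2 ratio of -1.81 (-2.18 to -1.46). Their counts differed by at most 1 UMI in 16 of 60 cells. Whether these reads belong to the pseudogenes or to a parent gene was not tested.

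A Sca-1-lower cell of pool 2 with the lowest cKit signal of the 63, 1785 units, had 66.4 CPM of erythroid genes and 1196 CPM of stem cell genes. It was 1 of the 2 Sca-1-lower cells of high CD127, with a signal of 17237 units, and held 12 of the 26 UMIs of T and NK cell genes in Sca-1-lower cells. Leaving out the CD127-high cells turned no list or gene whose direction was clear from counting error.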
